A study of Rattus norvegicus with 6 samples.

Results

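The genes described here are 10 membrane carriers of sugars, inositol and lactate: Slc2a1, Slc2a3, Slc2a4, Slc2a6, Slc2a8, Slc2a10, Slc2a12, Slc2a13, Slc16a1 and Slc16a3. They were taken by gene name from a table of 22085 rat genes, and all 10 were found. The names were chosen by gene family, with the levels and the group differences of these libraries already known, and those measured values are counted here as having guided the choice. Levels and differences of these 10 genes are therefore given as a description, and nothing is read from how many of them differed.

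RNA was sequenced from cultured cells of rat amniotic fluid, in 3 libraries from control pregnancies and 3 from a preeclampsia model. The fluid was collected on embryonic day 18.5 and the cells, labelled mesenchymal stem cells, were harvested at passage 4. Both groups were grown in the same serum-containing DMEM/F12 medium, per the labels. The sources used here do not give how preeclampsia was induced, the rat strain and age, or the number of animals behind a library, so the spread between libraries may be partly technical. Total counts were between 48402185 and 59193961 per library. Over all tested genes, the first principal component (33.3% of the variance) set preeclampsia libraries 2 and 3, at 69.24 and 68.48, apart from preeclampsia library 1, at -40.92 among the controls at -44.36 to -17.98. Control library 3 stood apart on the second (22.7%), at -78.65 against -17.70 to 47.63 in the other 5.

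Glucose enters most cells down its gradient through the GLUT carriers, which the Slc2 genes encode, and lactate made by glycolysis leaves together with a proton through the monocarboxylate carriers MCT1 and MCT4, encoded by Slc16a1 and Slc16a3. Slc2a1 (GLUT1) gives proliferating cells their basal glucose supply, and Slc2a3 (GLUT3) is a high-affinity carrier of neurons and placenta. Slc2a4 (GLUT4) is the insulin-responsive carrier of muscle and fat. Slc2a13 (HMIT) is the exception in the family, a proton-coupled carrier of myo-inositol, the sugar alcohol from which phosphoinositides are made.

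The members lie on 7 chromosomes, with Slc2a6, Slc2a8 and Slc2a10 on chromosome 3 and Slc2a4 and Slc16a3 on chromosome 10. In the coordinates of the table, for which the sources used here give no build, Slc2a1 spans 132717196 to 132745416 on chromosome 5, Slc2a3 spans 155960944 to 156026000 on chromosome 4 and Slc2a13 spans 122399329 to 122726605 on chromosome 7. The table's annotation gave all 10 genes the term integral component of plasma membrane and the 8 Slc2 genes the term glucose transmembrane transporter activity. It gave carbohydrate:proton symporter activity to 5 of them, Slc2a6, Slc2a8, Slc2a10, Slc2a12 and Slc2a13, and to none of Slc2a1, Slc2a3 and Slc2a4.

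The upstream sequences of Slc2a1, Slc2a6 and Slc2a13 are printed because these are the members with a RefSeq promoter entry whose control and preeclampsia libraries did not overlap in level. Each is the 250 bases before the gene's start in RefSeq's GRCr8 build, read 5′ to 3′ on the gene's strand. Capitals mark ACGTG or GCGTG on either strand, the core letters of the site bound by hypoxia-inducible factors, which read CACGT or CACGC on the other strand. The Slc2a1 window is chr5:138002272-138002521 (plus strand), the Slc2a6 window chr3:30753288-30753537 (minus strand) and the Slc2a13 window chr7:124606147-124606396 (minus strand).
Slc2a1: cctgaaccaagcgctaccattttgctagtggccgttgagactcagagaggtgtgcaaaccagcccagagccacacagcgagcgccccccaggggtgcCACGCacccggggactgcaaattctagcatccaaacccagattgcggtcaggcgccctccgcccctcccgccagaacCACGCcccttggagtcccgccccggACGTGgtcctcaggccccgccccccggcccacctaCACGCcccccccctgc
Slc2a6: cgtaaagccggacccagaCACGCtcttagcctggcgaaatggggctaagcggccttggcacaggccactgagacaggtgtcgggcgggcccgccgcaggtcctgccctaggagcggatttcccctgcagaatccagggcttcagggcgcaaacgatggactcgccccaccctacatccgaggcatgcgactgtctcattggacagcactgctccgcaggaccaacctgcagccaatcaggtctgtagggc
Slc2a13: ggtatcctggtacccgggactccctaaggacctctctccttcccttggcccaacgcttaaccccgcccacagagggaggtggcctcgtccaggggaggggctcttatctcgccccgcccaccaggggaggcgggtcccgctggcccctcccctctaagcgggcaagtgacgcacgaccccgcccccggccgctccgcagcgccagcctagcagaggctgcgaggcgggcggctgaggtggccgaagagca

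The Slc2a1 window held 4 matches, starting 153, 76, 51 and 16 bases before the start of the gene, and the Slc2a6 window held 1, at 232 bases. The Slc2a13 window held none, although 71.2% of its bases were G or C against a median of 51.2% over all windows. It held 4 matches to the GC box GGGCGG on either strand, a motif also found 3 times in the Slc2a1 window. Of 33469 such windows of 250 bases, 36.7% held ACGTG or GCGTG and 30.5% held GGGCGG. A match is a run of letters and not a measured binding site. Among the other members with an entry, the Slc16a1 window held a palindromic CACGTG, in 5.59% of all windows, and a separate GCGTG core, and those of Slc2a8, Slc2a12 and Slc16a3 held no hypoxia core. The RefSeq models of Slc16a3 and Slc16a1 span 43841 and 27411 bases in GRCr8 against 9886 and 20863 in the table, so their windows may not lie before the transcripts counted here. Slc2a3, Slc2a4 and Slc2a10 had no entry.

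By FPKM Slc2a1 was the most abundant of the 10 in both groups, and Slc2a4 was near the floor of detection. Levels are given as FPKM, a measure of fragments scaled by a length for each gene and by library size. The lengths used are not given and may not be those of the transcripts. An order between genes therefore holds for the deposited FPKM only. Values of single libraries are listed in the order of the library numbers, control libraries first. Over the 6 libraries the mean was 47.9 FPKM for Slc2a1, 22.1 for Slc16a3, 18.8 for Slc16a1, 17.2 for Slc2a3 and 9.27 for Slc2a13. Slc2a6, Slc2a8, Slc2a10 and Slc2a12 followed at 4.79, 3.85, 3.38 and 1.66 FPKM, and Slc2a4 stood at 0.155 FPKM. In this order Slc2a1 was apart from Slc16a3 in library ranges, as were Slc2a10 from Slc2a12 and Slc2a12 from Slc2a4. The other neighbours overlapped in range. The order differed by group, since Slc2a3 was second in control, at 25.1 FPKM against 17.8 for Slc16a3 and 16.3 for Slc16a1, and below both in preeclampsia, at 9.30 against 26.4 and 21.3. The order also depends on the unit. In counts, which are not per length, Slc16a3 was above Slc2a1 in every library except control library 1, at 3592 against 3649. Slc2a3 was above Slc2a1 in counts in every control library. All 10 passed the low-count filter of the test.

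**Figure D1:**
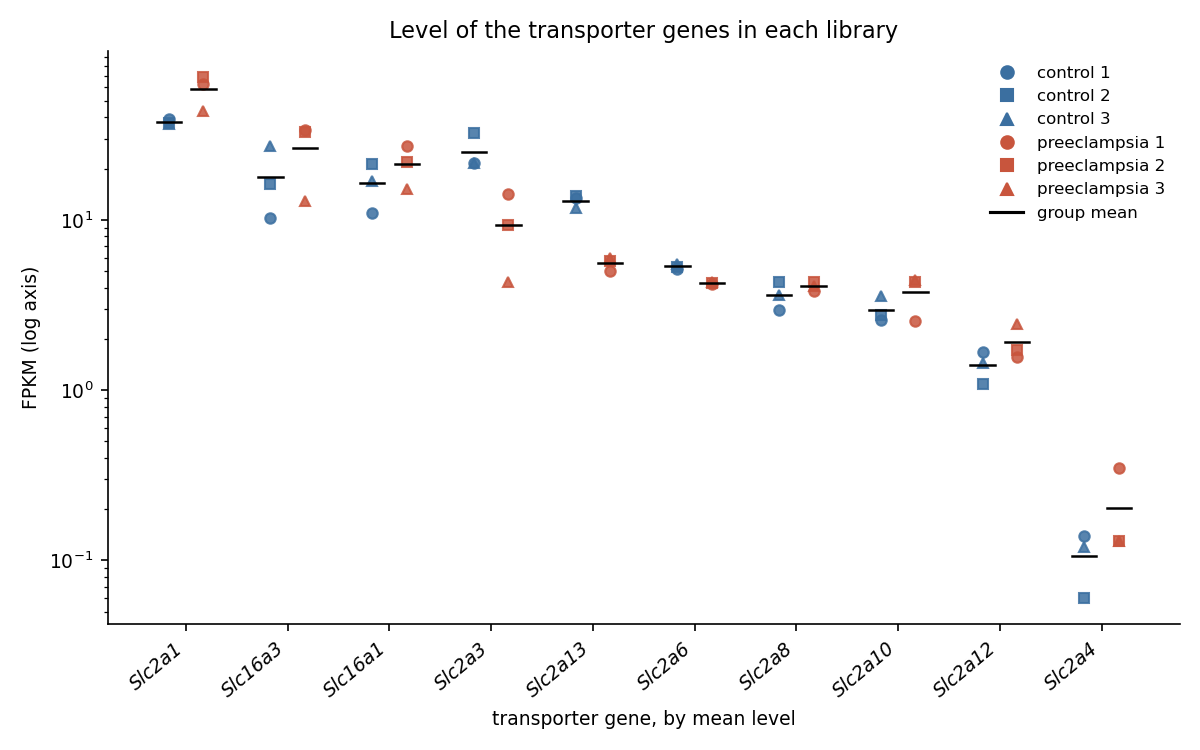
FPKM of each transporter gene in each library on a log axis, with genes ordered by mean level, control libraries in blue, preeclampsia libraries in red, replicate numbers as symbols and group means as bars. Slc2a1 lies between 36.43 and 69.08 FPKM, and Slc2a4 between 0.06 and 0.35.

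The comparison of the preeclampsia model with control asked which of these carriers differed in RNA level. Slc2a3, Slc2a6 and Slc2a13 were lower in every preeclampsia library than in any control library, and Slc2a1 was higher in every one. Of all 15776 genes tested, edgeR's quasi-likelihood test with Benjamini-Hochberg adjustment called none at an adjusted p under 0.05 (0%), so no member was called. By the same test 1450 genes, 9.19% of those tested, had an unadjusted p under 0.05. In 4 of the 10 members the FPKM ranges of the groups were apart, which held for 14.5% of all tested genes. Of these members 1 was higher in preeclampsia, as were 6.15% of tested genes, and 3 were lower, as were 8.32%. Since the members were named with this contrast in view, the count is only a description. The median log2 fold change, preeclampsia over control, was 0.39 over the 10 members and 0.01 over all tested genes, and 7 members had a value above 0. Without preeclampsia library 1 the log2 fold changes of the 4 separated members were 0.63 for Slc2a1, -1.82 for Slc2a3, -0.27 for Slc2a6 and -1.11 for Slc2a13. Without control library 3 they were 0.63, -1.53, -0.29 and -1.28 in the same order.

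Slc2a1, the GLUT1 gene, was at 38.89, 36.94 and 36.43 FPKM in control and 62.48, 69.08 and 43.43 FPKM in preeclampsia. The controls were tightly grouped, and each preeclampsia library lay above all of them, the nearest being library 3 at 116% of the control mean. The means were 37.4 ± 1.30 and 58.3 ± 13.3 FPKM (SD, n = 3 each), a log2 fold change of 0.66 (SE 0.19).

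Slc2a3, the GLUT3 gene, went the other way. It was at 21.65, 32.14 and 21.44 FPKM in control and 14.19, 9.37 and 4.33 FPKM in preeclampsia. The highest preeclampsia library was below the lowest control, and the preeclampsia libraries were spread from 17.3% to 56.6% of the control mean. The means were 25.1 ± 6.12 and 9.30 ± 4.93 FPKM (SD, n = 3 each), a log2 fold change of -1.42 (SE 0.41). The spread within groups was wide, since 88.0% of 11829 tested genes with a mean of at least 1 FPKM had a smaller within-group SD of log2(FPKM + 1).

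Slc2a4, the insulin-responsive carrier gene, was at 0.14, 0.06 and 0.12 FPKM in control and 0.35, 0.13 and 0.13 FPKM in preeclampsia libraries. These levels rest on 9 to 48 counts per library, and the groups overlapped. The log2 fold change of 0.84 (SE 0.62) was 0.26 without preeclampsia library 1, the library at 0.35 FPKM.

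Slc2a1 and Slc2a3 lay in opposite directions, and the scaling of a library cancels in their ratio within it. The FPKM ratio of Slc2a1 to Slc2a3 was 1.80, 1.15 and 1.70 in control and 4.40, 7.37 and 10.0 in preeclampsia. The mean log2 ratio was 0.60 ± 0.35 in control and 2.78 ± 0.60 in preeclampsia (SD, n = 3 each). That the groups did not overlap follows from Slc2a1 being higher and Slc2a3 lower in every preeclampsia library, and adds nothing to those values. With counts in place of FPKM, which are not per length, the mean log2 ratios were -0.53 and 1.64, so which gene is the larger in control depends on the unit. The gap between groups is the same in both units by construction, since FPKM is the count scaled per gene and per library.

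**Figure D2:**
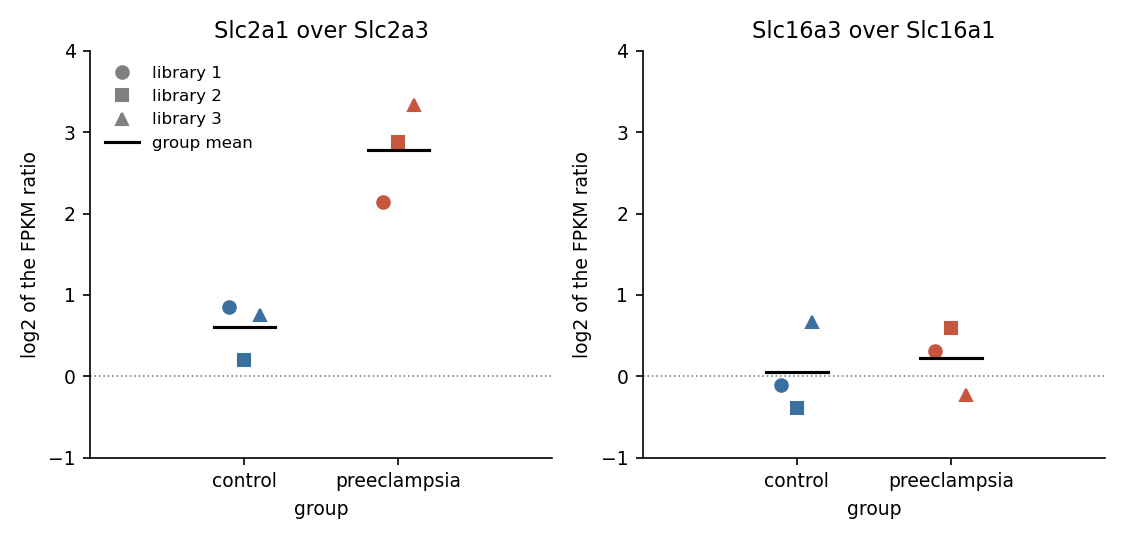
Log2 of the FPKM ratio within each library for Slc2a1 over Slc2a3 (left) and Slc16a3 over Slc16a1 (right), with replicate numbers as symbols and group means as bars. The left ratio has means of 0.60 in control and 2.78 in preeclampsia with no overlap, and the right one means of 0.06 and 0.22 with overlap.

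The summed FPKM of the 8 Slc2 genes was 88.9 ± 6.61 in control and 87.4 ± 16.1 in preeclampsia (SD, n = 3 each), and the ranges overlapped. Its make-up differed. Slc2a1 held 38.3% to 45.0% of the sum in control libraries and 62.8% to 69.8% in preeclampsia libraries. Slc2a3 held 25.0% to 33.4% and 6.26% to 15.1%, and Slc2a13 14.0% to 15.5% and 5.34% to 8.61%. In these 3 genes the shares of the groups did not overlap. Shares sum to a fixed total, so a larger share of one gene lowers the others.

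**Figure D3:**
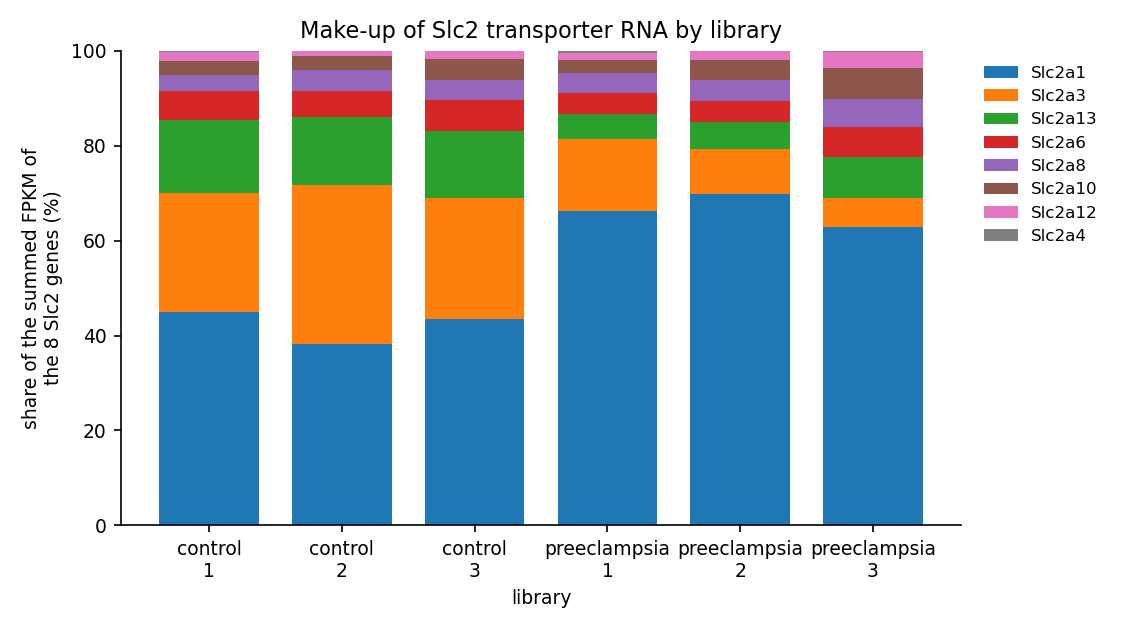
Stacked bars give the share of each gene in the summed FPKM of the 8 Slc2 genes, in percent, for each library. Slc2a1 makes up 38.3% to 45.0% in the control bars and 62.8% to 69.8% in the preeclampsia bars.

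The class III carriers sit mostly on intracellular membranes. Slc2a6 (GLUT6), a carrier of lysosomes described in mouse macrophages, was at 5.16, 5.30 and 5.53 FPKM in control and 4.19, 4.26 and 4.32 FPKM in preeclampsia libraries. The difference was small but the libraries of a group were close together, at 78.6% to 81.1% of the control mean in preeclampsia, and the groups did not overlap. The means were 5.33 ± 0.187 and 4.26 ± 0.0651 FPKM (SD, n = 3 each), a log2 fold change of -0.30 (SE 0.13). The smallest within-group spread of the members was this gene's, and 0.144% of the 11829 genes had a smaller one. Of its span, 4043 bases overlap Cacfd1 on the opposite strand, at 21.5 ± 3.91 and 23.3 ± 2.86 FPKM (SD, n = 3 each). The sources used here do not say whether the counting used strand, so reads of both genes may not have been told apart.

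Slc2a8 (GLUT8), Slc2a10 (GLUT10) and Slc2a12 (GLUT12) had means above control in preeclampsia, with overlapping groups. Slc2a8, another intracellular carrier, was at 2.94, 4.31 and 3.62 FPKM in control and 3.81, 4.34 and 4.07 FPKM in preeclampsia, a log2 fold change of 0.20 (SE 0.18). Slc2a10, whose loss in humans causes arterial tortuosity syndrome, was at 2.59, 2.76 and 3.57 FPKM and 2.55, 4.33 and 4.46 FPKM (0.38, SE 0.29). In Slc2a10 preeclampsia library 1 was lower than every control library while the other 2 were above them all.
Slc2a12 was at 1.67, 1.09 and 1.45 FPKM in control and 1.57, 1.72 and 2.43 FPKM in preeclampsia (0.46, SE 0.31), and preeclampsia library 1 was within the control range. Its span shares 238 bases with Tbpl1 on the opposite strand, at 2.68 ± 0.491 and 2.72 ± 0.294 FPKM (SD, n = 3 each). Leaving out 1 library at a time gave log2 fold changes of 0.09 (without control library 1) to 0.33 (without control library 2) for Slc2a8. The range was 0.24 (without preeclampsia library 3) to 0.61 (without preeclampsia library 1) for Slc2a10. It was 0.25 (without preeclampsia library 3) to 0.65 (without control library 1) for Slc2a12.

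Slc2a13, the inositol carrier gene, was at 13.40, 13.76 and 11.74 FPKM in control and 5.03, 5.73 and 5.95 FPKM in preeclampsia. Every preeclampsia library stood between 38.8% and 45.9% of the control mean, and the gap between the groups was wider than the range of either. The means were 13.0 ± 1.08 and 5.57 ± 0.480 FPKM (SD, n = 3 each), a log2 fold change of -1.20 (SE 0.16). Leaving out each library gave -1.28 to -1.11. DESeq2, run on the same genes as an alternative, called Slc2a13 and Slc2a3 of the 10, among 368 genes or 2.65% of those it gave an adjusted p. Run on all genes of the table it called Slc2a13 of the 10, among 302 genes or 1.71%. These calls too belong to the contrast known when the genes were chosen.

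Within each group the 2 lactate carrier genes spanned a wider range than the difference between the group means. Slc16a1, the MCT1 gene, was at 10.90, 21.17 and 16.96 FPKM in control and 27.01, 21.72 and 15.17 FPKM in preeclampsia. The groups overlapped, preeclampsia library 3 being below the mean of the controls. The means were 16.3 ± 5.16 and 21.3 ± 5.93 FPKM (SD, n = 3 each), a log2 fold change of 0.40 (SE 0.28), with 0.21 without control library 1 and 0.63 without control library 2.

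Slc16a3, the MCT4 gene typical of glycolytic cells, was at 10.18, 16.14 and 27.07 FPKM in control and 33.50, 32.72 and 12.93 FPKM in preeclampsia. Preeclampsia libraries 1 and 2 were above all controls, and library 3 was below control libraries 2 and 3. The means were 17.8 ± 8.57 and 26.4 ± 11.7 FPKM (SD, n = 3 each), a log2 fold change of 0.60 (SE 0.46). It was 1.02 without control library 3 and 0.34 without control library 1, so the size rests on single libraries. Of the 11829 genes, 91.4% had a smaller within-group spread.

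The FPKM ratio of Slc16a3 to Slc16a1 was 0.934, 0.762 and 1.60 in control and 1.24, 1.51 and 0.852 in preeclampsia libraries, with overlapping groups. In counts the mean log2 ratio was 1.43 in control and 1.59 in preeclampsia against 0.06 and 0.22 in FPKM, so the 2 genes were near each other in FPKM and not in counts. The deposited values imply a length of 7115 bases for Slc16a3 and 2756 for Slc16a1 if FPKM was scaled by the summed counts. Slc16a3 shares 573 bases of its span with Csnk1d on the opposite strand, at 90.64 to 102.41 FPKM over the 6 libraries.

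**Figure D4:**
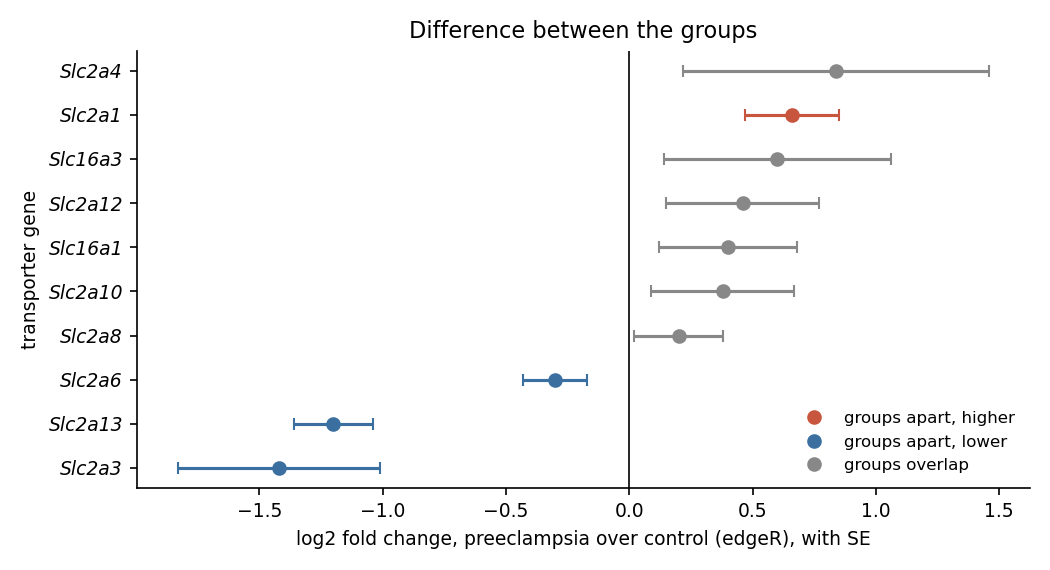
Log2 fold change of each transporter gene, preeclampsia over control, with a standard error derived from edgeR's F statistic (n = 3 libraries per group). Slc2a3 (-1.42), Slc2a13 (-1.20) and Slc2a6 (-0.30) lie below 0 and Slc2a1 (0.66) above it with groups apart, and the 6 grey genes have overlapping groups.

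Marker genes of other cell types and of cell division varied between libraries, and their part in these differences was not tested. All 10 mesenchymal markers were at 1 FPKM or more in every library. The 15 macrophage markers summed to 154, 131 and 27.4 FPKM in control and 31.3, 453 and 223 FPKM in preeclampsia. Of them C1qa was listed at 0 in control library 3. Control library 3 and preeclampsia library 1 had the lowest sums of macrophage markers. In these libraries Slc2a13 was at 11.74 and 5.03 FPKM, Slc2a3 at 21.44 and 14.19 FPKM and Slc2a1 at 36.43 and 62.48 FPKM. Without both of these libraries the log2 fold changes were 0.60 for Slc2a1, -1.93 for Slc2a3 and -1.19 for Slc2a13.

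The 10 genes of the G2 and M phases summed to 147, 199 and 81.5 FPKM in control and 391, 81.0 and 83.4 FPKM in preeclampsia libraries. Preeclampsia library 1, the highest, was also the highest library for Slc16a1, Slc16a3 and Slc2a4, and the lowest for Slc2a6, Slc2a10 and Slc2a13. Slc16a3 was at 33.50 FPKM there and at 32.72 FPKM in preeclampsia library 2, which had the lowest G2 and M phase sum. Without preeclampsia library 1 Slc16a3 had a log2 fold change of 0.42 and Slc16a1 0.23. Epithelial markers, 7 of 9 in the table, summed to 4.11 to 55.9 FPKM in control and 0.5 to 1.66 FPKM in preeclampsia libraries, with Epcam listed at 0 in 5 of the 6 libraries. In cultures of mixed cells, fewer cells of a type and less RNA per cell cannot be told apart.

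Of a fixed list of 9 other glucose carrier genes, those in the table averaged at most 1.88 FPKM over the 6 libraries. Slc2a9 was above the members Slc2a12 (1.66) and Slc2a4 (0.155). Further sugar carriers were not looked up. Of the 9, 5 were in the table and 4 were tested, 2 with a fold change above 0 and 2 below. Slc2a9, a urate carrier, was the highest at 1.97 ± 0.765 and 1.78 ± 0.343 FPKM (SD, n = 3 each), and the sodium-coupled carrier gene Slc5a2 was at 0.553 ± 0.185 and 0.457 ± 0.177 FPKM. The fructose carrier gene Slc2a5 and the sodium-coupled Slc5a1 stayed at or below 0.24 FPKM in every library. The median log2 fold change of this list was 0.82 (0.37 without preeclampsia library 2). It lay midway between Slc2a9 (-0.12) and Slc5a1 (1.76), the latter at those low levels. The median was -0.18 when genes with fewer than 3 libraries at 1 CPM or more were left out.

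Among 12 other tested genes of monocarboxylate transport, 7 had a fold change above 0 and 5 below, with a median log2 fold change of 0.17. This median was -0.03 without preeclampsia library 2, 0.09 without preeclampsia library 3 and 0.33 without control library 3, so its sign rests on 1 library. Slc16a7 (MCT2), a high-affinity lactate and pyruvate carrier, was at 21.74, 16.30 and 10.94 FPKM in control and 16.51, 7.75 and 6.94 FPKM in preeclampsia, with overlapping groups and a log2 fold change of -0.66. Mpc1, a subunit of the mitochondrial pyruvate carrier, was at 26.97, 21.94 and 25.92 FPKM in control and 21.09, 21.04 and 19.00 FPKM in preeclampsia, without overlap (log2 fold change -0.27). It was the only 1 of the 12 with groups apart, beside 14.5% of all tested genes. Slc16a14 was at 9.10 FPKM in preeclampsia library 1 and at 0.27 to 2.09 FPKM in the other 5. Slc16a13 was at 2.51 ± 0.332 and 2.05 ± 0.271 FPKM (SD, n = 3 each).

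Of 14 tested partners and traffic factors, 7 had a fold change above 0 and 7 below, with a median log2 fold change of 0.01. Bsg, which encodes basigin, the chaperone that carries MCT1 and MCT4 to the cell surface, was at 259.35, 290.83 and 312.09 FPKM in control and 332.63, 445.97 and 381.75 FPKM in preeclampsia. The groups did not overlap, and the log2 fold change was 0.46. Bsg was the only 1 of the 14 with groups apart, which held for 14.5% of all tested genes. Emb, encoding embigin, the related partner of MCT2, was at 151.79 FPKM in control library 3 and at 45.54 to 75.04 FPKM in the other 5. Txnip, an arrestin-like protein that takes GLUT1 off the cell surface, was at 18.3 ± 4.56 and 18.9 ± 3.76 FPKM (SD, n = 3 each). Lnpep, the aminopeptidase that travels with GLUT4, was at 237 ± 70.4 and 181 ± 22.7 FPKM, and Gipc1, a GLUT1-binding adaptor, at 48.4 ± 11.4 and 64.1 ± 6.49 FPKM (SD, n = 3 each).

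Beside the lower Slc2a13, 3 of 8 tested inositol genes had a fold change above 0 and 5 below, with a median log2 fold change of -0.19. Cdipt, the enzyme that joins myo-inositol to lipid to make phosphatidylinositol, was at 46.74, 42.54 and 42.27 FPKM in control and 33.87, 32.11 and 30.59 FPKM in preeclampsia. It was the only one of the 8 whose groups did not overlap, at a log2 fold change of -0.43. Over all tested genes the groups did not overlap in 14.5%, and in 8.32% with preeclampsia lower. Slc5a3, the sodium-coupled inositol carrier gene, was at 0.75, 0.76 and 1.37 FPKM in control and 0.76, 0.54 and 0.61 FPKM in preeclampsia, with overlap. Inpp5a and Impa1, inositol phosphatase genes, were at 23.9 ± 3.46 and 16.3 ± 4.37 FPKM and at 21.2 ± 1.70 and 17.2 ± 4.30 FPKM, and the lipid kinase gene Pi4k2a at 13.9 ± 0.718 and 12.9 ± 0.925 FPKM (SD, n = 3 each).

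Glycolysis and the hypoxia response, pathways in which Slc2a1 and Slc16a3 are known to take part, had 17 of 21 and 20 of 23 tested genes with a fold change above 0, against 51.7% of all tested genes. The median log2 fold changes were 0.54 and 0.30, and no gene of either list was called by edgeR. The medians moved with single libraries. Leaving out 1 library at a time gave 0.31 to 0.67 for glycolysis. For hypoxia it gave 0.21 (without preeclampsia library 2) to 0.64 (without control library 3). The groups did not overlap in 5 glycolysis genes and 4 hypoxia genes, all higher in preeclampsia, beside 6.15% of all tested genes. Chosen after their values were seen, these were Pfkl, Pfkfb4, Pgk1, Pgam1 and Pdk1 of the glycolysis list, and Hif1a, Arnt, Ca12 and Ankrd37. The last 2 were low. Ca12 had means of 0.367 FPKM in control and 1.15 in preeclampsia, on 20 to 133 counts. Ankrd37 had means of 0.31 and 0.547 FPKM, on 36 to 108 counts. Hif1a and Arnt, which encode the paired subunits of the hypoxia-inducible factor HIF-1, had log2 fold changes of 0.80 (SE 0.29) and 0.30 (SE 0.12). The 3 hypoxia genes below 0 were Ca9 (-0.90), Epas1 (-0.71) and Lox (-0.17).

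The genes of these lists with the highest FPKM overlapped between the groups. In counts Ldha, at 36397 to 92961 per library, was below Lox, at 102982 to 138450. The lead of Ldha in FPKM thus depends on the length used for it. Ldha, which makes the lactate that these carriers export, was at 3861.44, 4993.26 and 8349.63 FPKM in control and 8144.54, 8240.38 and 5964.18 FPKM in preeclampsia. Control libraries 1 and 2 and preeclampsia library 3 were the 3 lowest, as they were for Slc16a3. Gapdh was between 417.34 and 743.99 FPKM in control and between 470.57 and 1230.33 FPKM in preeclampsia, and the glycolytic enolase gene Eno1 between 631.81 and 698.83 FPKM and between 613.75 and 854.57 FPKM. The collagen-modifying genes Lox and P4ha1 ranged from 334.38 to 509.04 FPKM and from 151.60 to 264.14 FPKM over the 6 libraries. Vegfa, the angiogenic growth factor gene, was at 176 ± 20.6 and 216 ± 79.6 FPKM, and Plod2, a collagen lysyl hydroxylase gene, at 134 ± 69.8 and 145 ± 49.6 FPKM (SD, n = 3 each). Aldoa, the aldolase gene, was at 439 ± 57.6 and 511 ± 112 FPKM (SD, n = 3 each). Without control library 3 and preeclampsia library 1 the median log2 fold change of the hypoxia genes was 0.79.

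**Figure D5:**
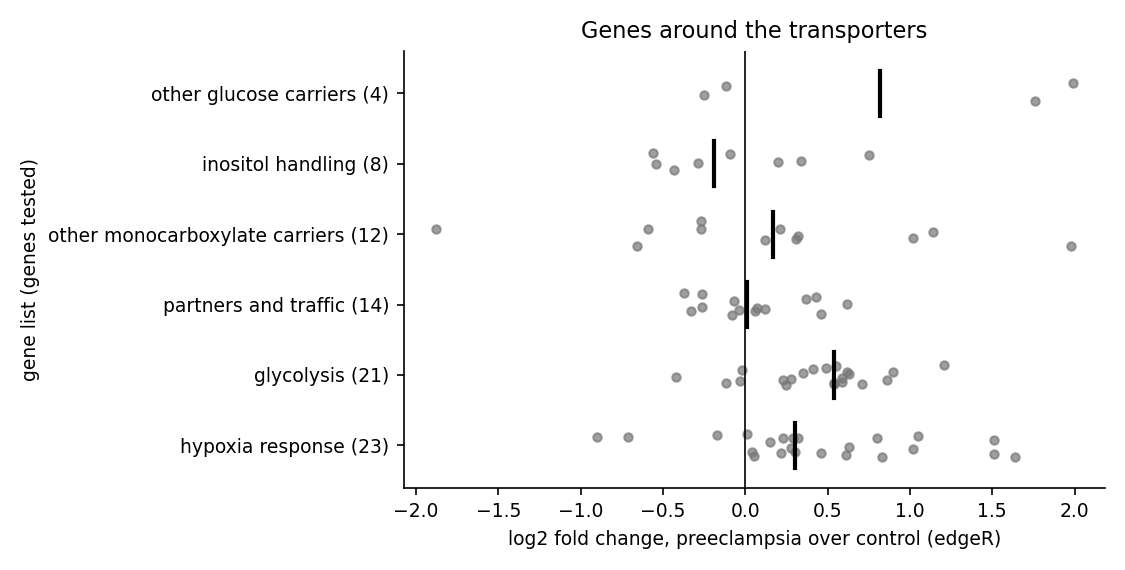
Log2 fold change, preeclampsia over control, of each tested gene in 6 lists around the transporters, with black bars at the list medians and the number of genes tested in brackets. Medians are 0.54 for glycolysis and 0.30 for the hypoxia response, and -0.19 for inositol handling.

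The genes whose pattern over the 6 libraries was most like that of Slc2a1 were Ddx41, Galk1 and Lrrc45, by the root mean square difference of centred log2(FPKM + 1) among 6187 genes. Galk1, the galactokinase gene, was at 35.92, 44.93 and 38.95 FPKM in control and 66.81, 65.69 and 46.09 FPKM in preeclampsia libraries, a root mean square difference of 0.127 from Slc2a1. Ddx41, a helicase gene, differed by 0.0923 and Lrrc45, a centrosomal gene, by 0.147. Nearest to Slc16a3 among 2878 genes were Epb41l3, Mst1r and Mrgprf, at 0.252, 0.253 and 0.272. Epb41l3, a membrane skeleton gene, was at 9.34, 13.27 and 16.98 FPKM in control and 22.90, 23.01 and 13.71 FPKM in preeclampsia libraries.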

How the data were processed

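The deposited table gives each gene a count in whole numbers and, beside it, FPKM rounded to 2 decimals for every library, per the file headers. Adapters carried unique molecular identifiers, per the labels' protocols, but the sources used here do not say whether reads were collapsed. Tools listed in the submitters' processing notes are StringTie 2.1.6, HISAT2 2.2.1, cutadapt 1.9 and FastQC, with no roles. Between 35.1% and 38.0% of counts from 1 to 15 were multiples of 4, so low counts may derive from coverage and be less certain than their size implies. Genes were kept by filterByExpr, libraries were scaled by TMM, and edgeR 4.0.16 (R 4.3.3) ran its quasi-likelihood test over 15776 genes with group as the only term. Standard errors of log2 fold changes were derived as the absolute log2 fold change divided by the square root of the test's F statistic. Their median was 0.263. No libraries were duplicates. Same-numbered libraries were not treated as pairs, since the labels state no shared source and their deviations correlated at under 0.1.

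Alternatives were DESeq2 1.42.0, limma 3.58.1 on log2(FPKM + pseudocount), other scalings and filters, the replicate block and leaving out libraries. Members and gene lists were chosen with earlier results of these data known. Named were all 10 members, the 4 highest genes by mean FPKM of each pathway list, Bsg, Emb, Slc5a3, Txnip, Slc16a7, and the 3 genes of most similar pattern to Slc2a1 and to Slc16a3, with an SD at least 0.5 times theirs. The 9 glycolysis and hypoxia genes whose groups did not overlap, Ca9 and Epas1, genes called in alternatives and genes overlapping a member were named after their values were seen. Mesenchymal, macrophage, epithelial and G2 and M phase markers are reported. Endothelial, erythroid and adipocyte or muscle markers summed to at most 3.71, 0.350 and 48.2 FPKM per library.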

Additional observations from a re-analysis of the deposited data

How the results depend on the processing

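All 176 log2 fold changes of the 10 members over 18 alternatives kept the direction reported, and 3 passed an adjusted p of 0.05, all with DESeq2. The number of genes called, 0 in edgeR with 1450 at an unadjusted p under 0.05, was 368 with DESeq2 and 302 with DESeq2 on all genes of the table, an alternative added after seeing the data. It was 1 with limma on log2(FPKM + 1) without a filter, and 0 to 2 when 1 library was left out, with 1 without control library 3 (Tgfbr3) and 2 without preeclampsia library 1 (Enpp3 and Pitx1). It was 3 without both of these libraries, also added later. Outside DESeq2 none of the called genes was a member, and the cause of the differing numbers was not tested. The number called was 0 with the replicate block. Same-numbered libraries had correlations of deviations of 0.048, 0.041 and 0.01, and 4 of 6 libraries were closest to their own number, a hint from the data only. Another scaling moved the median of all genes by at most 0.011 on the log2 scale. Under limma on log2(FPKM + 1) with a minimum mean of 1 FPKM Slc2a4 was not tested. Its levels rest on 9 to 48 counts, where depth and the way low counts were made limit the precision.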
